A study of Rattus norvegicus with 80 samples.

Results

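Lung gene expression was followed 30 and 90 days after a single dose of multi-walled carbon nanotubes (MWCNT), fibre-like particles made of carbon cylinders one inside another, had been placed in the airways of rats. All arrays titled MWCNT from these days were taken, which gave 8 of the 80 arrays of the study, 1 array for each of 4 dose levels on each day. The rats were male Sprague-Dawley (Crl:CD[SD]) animals, an outbred laboratory strain, bought at 7 weeks of age. They received MWCNT (0.5 mg/kg, 1.0 mg/kg or 2.0 mg/kg), or the vehicle alone, distilled water containing preservatives, labelled Control for MWCNT. The other arrays covered days 1, 3 and 7 of MWCNT (12 arrays) and 3 preparations of cellulose nanofibrils, named CNF1, CNF2 and CNF3, with vehicles of their own, of which the 24 arrays from days 30 and 90 are used for comparison. The treatment protocol named 1 mg/kg and gave these 3 numbers as mg/mL of suspension, whereas the array labels gave them as mg/kg, and the labels' doses are used. Descriptions of all 8 arrays ended in the number 4 and the extraction protocol gave n = 4 for each group and time, which leaves unstated if the RNA on an array came from 1 animal or was pooled. No group had a replicate array, so the p-values measured each slope or difference against the scatter of these arrays around a fitted line or dose step, curvature with dose included.

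Inhaled or instilled particles that resist digestion are taken up by alveolar macrophages, the phagocytes of the air spaces. Carbon nanotubes are not readily degraded and can remain in the lung for long periods, and macrophages loaded with them enlarge, fuse and release chemokines that draw monocytes and neutrophils from the blood. Rigid nanotubes are known in rodents for lasting inflammation, granulomas and fibrosis.

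The values were centred log2 values, so that 0 is near the middle of a gene over all 80 arrays and an array's value shows how far it stood above or below that, not how abundant the RNA was. Levels could not be compared between genes, and defining lung markers could not be checked by level. The dose response was the slope of the value on dose, in log2 units per mg/kg, with 1 intercept per day (limma, n = 8 arrays, 5 residual degrees of freedom), and p-values were adjusted by Benjamini-Hochberg over 15924 genes. The medians of the 8 arrays over all genes lay between -0.06 and 0.09, with both 0.5 mg/kg arrays highest. The medians of the 15 spots without rat sequence varied more, from -1.38 (2.0 mg/kg, day 30) and -0.935 (vehicle, day 30) to 0.012 (1.0 mg/kg, day 90). Their dose slopes were at most 0.43 in size with a standard error of 0.36, too wide for a slope of that size to pass. In whole lung, fewer cells of a type and less RNA per cell cannot be told apart.

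Across both late days, 444 genes rose with dose and 72 fell, 2.79% and 0.452% of all genes tested and 3.24% together, at an adjusted p under 0.05. The rises were led by genes of activated phagocytes (Spp1, Mmp12, Atp6v0d2, Ctsk, Trem2), by genes of ion transport and secreted proteins (Slc26a4, Lcn2, Mmp7, Chia) and by monocyte-attracting chemokines (Ccl7, Ccl2, Ccl9). The median slope of all genes was -0.05 and the median standard error 0.087. Of single arrays left out, those at the ends of the dose range cost the most calls. Their loss also shortens the dose range of that day. Without the day-30 vehicle array 36 genes passed, and without the day-30 2.0 mg/kg array 60. Without the day-90 vehicle array 90 passed, and without the day-90 2.0 mg/kg array 0. Leaving out 1 of the arrays between gave 317 and 228 on day 30 and 339 and 309 on day 90, at 0.5 and 1.0 mg/kg in that order. Without both 0.5 mg/kg arrays 30 genes passed, and without both 1.0 mg/kg arrays 0, so the calls needed the middle doses too. With quantile normalization 220 genes rose and 3 fell, so few falls passed under that scaling.

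The 250 bases before the start of 4 of the genes that rose are shown because their letters hold short motifs named for factors of inflammatory and lysosomal gene control. They come from the RefSeq promoters of rat build GRCr8, read 5′ to 3′ on the gene's strand, and capitals mark the motif matches. Mmp12 (chr8:12866402-12866651, plus strand) and Mmp7 (chr8:13132793-13133042, plus strand) encode metalloproteinases, Lcn2 (chr3:36081781-36082030, minus strand) encodes lipocalin 2, which binds bacterial iron carriers, and Gpnmb (chr4:79340878-79341127, plus strand) encodes a glycoprotein of lysosome-rich macrophages.
Mmp12: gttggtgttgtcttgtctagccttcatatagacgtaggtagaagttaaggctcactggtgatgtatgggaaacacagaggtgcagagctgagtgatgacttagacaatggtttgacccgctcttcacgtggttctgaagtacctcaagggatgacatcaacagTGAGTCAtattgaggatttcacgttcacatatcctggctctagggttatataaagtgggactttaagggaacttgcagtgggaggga
Mmp7: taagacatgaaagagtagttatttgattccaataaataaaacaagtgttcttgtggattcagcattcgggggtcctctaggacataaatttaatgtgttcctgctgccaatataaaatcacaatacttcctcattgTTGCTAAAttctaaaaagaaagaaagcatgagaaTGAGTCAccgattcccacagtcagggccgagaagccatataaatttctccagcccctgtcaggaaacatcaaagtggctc
Lcn2: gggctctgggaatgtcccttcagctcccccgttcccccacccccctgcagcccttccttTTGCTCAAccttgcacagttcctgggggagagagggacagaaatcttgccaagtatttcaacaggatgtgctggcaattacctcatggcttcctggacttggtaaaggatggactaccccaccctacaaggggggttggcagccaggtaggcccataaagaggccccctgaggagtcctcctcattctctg
Gpnmb: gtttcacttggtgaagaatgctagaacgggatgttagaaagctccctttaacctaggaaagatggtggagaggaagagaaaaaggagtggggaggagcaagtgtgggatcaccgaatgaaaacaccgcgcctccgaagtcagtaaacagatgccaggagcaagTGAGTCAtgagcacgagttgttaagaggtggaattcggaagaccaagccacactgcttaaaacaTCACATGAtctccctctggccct

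Motifs were searched on both strands as AP-1 (TGANTCA), C/EBP (TTGCNNAA) and M-box (TCANGTGA), N being any base, and the marked matches do not overlap. An AP-1 match begins 87 bases before the start of Mmp12 and of Gpnmb and 80 bases before that of Mmp7. The Mmp7 window also holds a C/EBP match at 114 bases, and that of Lcn2 a C/EBP match at 191 bases. An M-box match lies 23 bases before the start of Gpnmb. Of the 340 genes that rose and had a promoter in the table, 9.4% held AP-1, 12.1% C/EBP and 4.7% M-box. Among all 13145 genes tested that had one, the shares were 5.3%, 8.7% and 3.5%. The 52 genes that fell and had one gave 1.9%, 13.5% and 1.9%. Of the 20 steepest named rises 18 had one, and 5 of these held AP-1, 6 C/EBP and 0 M-box. Gpnmb was not among these 20. The window of Spp1, the steepest rise, held no match, so the 4 windows shown do not stand for all rises. A match is a run of letters and not a shown binding site.

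The steepest slopes of all, those of Spp1 and Mmp12, belonged to genes of phagocytes that handle particles. All 45 gene lists used here were written with earlier results of these data known, so their counts are descriptions. Of the 15 measured genes on a list of phagocyte activation and particle clearance, 12 rose and none fell. Their median slope was 0.99 against -0.05 for all genes. Spp1, osteopontin, a secreted adhesion protein and cytokine of activated macrophages, read -3.78 with vehicle on day 30, then -1.12, 0.39 and 2.28 at the rising doses. On day 90 the same series ran -3.87, -1.69, 0.12 and 2.85. Both days thus climbed at every step, and every exposed array stood above both vehicle arrays. Its slope was 3.11 ± 0.25 (SE) per mg/kg, adjusted p = 0.00764. Mmp12, macrophage elastase, ran -4.36, -2.09, -0.57 and 1.13 on day 30 and -4.48, -2.41, -0.96 and 1.76 on day 90, with a slope of 2.85 ± 0.21 and adjusted p = 0.00588. Its order by dose was likewise complete on both days. Trem2, a lipid-sensing receptor of phagocytes, moved from -1.30 to 1.88 on day 30 and from -1.09 to 2.26 on day 90 between vehicle and 2.0 mg/kg, a slope of 1.59 ± 0.15 (adjusted p = 0.00895). Gpnmb read -1.03, -0.16, 0.54 and 1.57 on day 30 and -0.81, -0.33, 0.27 and 1.94 on day 90, with the small standard error of 0.08 around a slope of 1.34 (adjusted p = 0.00459). Fabp4, a fatty acid carrier of macrophages and adipocytes, was at its vehicle value at 0.5 mg/kg on day 30 (-0.37 against -0.36), below it on day 90 (-0.26 against -0.07), and reached 2.34 and 2.44 at 2.0 mg/kg, so its rise lay between 0.5 and 2.0 mg/kg.

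**Figure D1:**
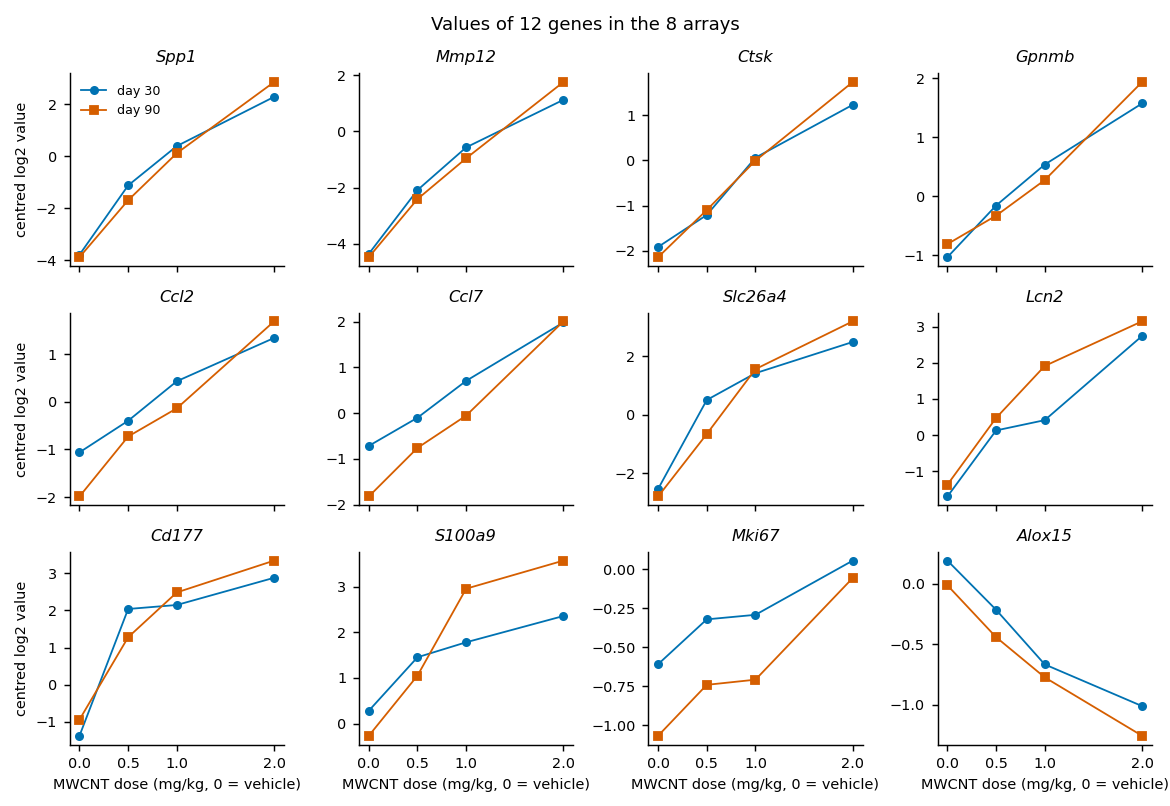
Centred log2 values of 12 genes (vertical axes, each panel with its own range) against MWCNT dose in mg/kg, vehicle at 0, on day 30 (circles) and day 90 (squares), 1 array per point and lines joining the arrays of a day. Spp1 climbs from -3.78 to 2.28 on day 30 and from -3.87 to 2.85 on day 90, Cd177 is near its upper range from 0.5 mg/kg on day 30, and Alox15 falls at each dose on both days.

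Genes of osteoclasts, the bone-resorbing cells formed by macrophage fusion, were among the same rises: 4 of 7 rose and none fell, median slope 0.50. Ctsk, the collagen-degrading protease cathepsin K, read -1.92, -1.21, 0.06 and 1.23 on day 30. On day 90 it went from -2.14 to 1.74, and its slope was 1.77 ± 0.11 (adjusted p = 0.00459). Atp6v0d2, a proton pump subunit of osteoclasts and macrophages, had already gone from -1.94 to -0.24 at 0.5 mg/kg on day 30, reached 1.84 at 2.0 mg/kg, and had a slope of 1.89 ± 0.20. Dcstamp, a receptor needed for cell fusion, rose by 0.81 and Acp5, tartrate-resistant phosphatase, by 0.50 per mg/kg. Mmp9, Mitf and Calcr did not pass. In the lysosome list 7 of 15 genes rose and none fell, median 0.40, and the slopes of the 7 lay between 0.40 (Hexa) and 0.72 (Ctsz). These were digestive enzymes and lipid handlers such as Ctss, Ctsb, Lipa and the cholesterol carrier Npc2. The other 8 did not pass, among them the enzymes Ctsl (-0.05), Gla (0.18) and Glb1 (0.22) and the membrane proteins Lamp1 and Lamp2 (0.22 and 0.29). Among 10 genes of lipid-laden macrophages 3 rose, namely Pla2g7, which cleaves oxidized phospholipids (1.00), Fabp5 (0.76) and Lipa (0.54).

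Of 14 markers of macrophages and monocytes as cells 4 rose and none fell, median 0.27. The mean of the list was -0.44 and -0.46 in the vehicle arrays and 0.26 and 0.62 at 2.0 mg/kg on days 30 and 90. Itgam, the integrin chain CD11b of recruited myeloid cells, read -1.92 and -2.27 with vehicle and 0.85 and 1.17 at 2.0 mg/kg, a slope of 1.52 ± 0.21 (adjusted p = 0.0199). Cd68, Cd14 and Fcgr1a had slopes of 0.99, 0.47 and 0.35. Marco, a scavenger receptor of alveolar macrophages, read -0.24 at 2.0 mg/kg on day 30 and 2.51 on day 90, and its slope of 0.91 ± 0.46 did not pass (adjusted p = 0.336). Csf1r and Cd163, a growth factor receptor and a haemoglobin scavenger of macrophages, had slopes of -0.29 and -0.36 that did not pass either. The part of cell number in the rises of the phagocyte genes was not tested, and centred values have no zero from which absence of a marker could be read. Lilrb4, an inhibitory receptor of myeloid cells, rose too, from -1.46 to 1.06 on day 30 and from -1.99 to 1.55 on day 90 (adjusted p = 0.00933).

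Chemokines that attract monocytes rose with dose in 7 of 9 cases, and none fell, with a median slope of 1.16. Ccl7 read -0.72, -0.10, 0.71 and 1.99 on day 30 and -1.82, -0.76, -0.05 and 2.01 on day 90. Its slope was 1.63 ± 0.12 (adjusted p = 0.00496). Ccl2, the main ligand of the monocyte receptor CCR2, went from -1.06 to 1.34 on day 30 and from -1.99 to 1.69 on day 90, slope 1.49 ± 0.14 (adjusted p = 0.00895). In both genes the vehicle array of day 90 was lower than that of day 30, while the 2.0 mg/kg arrays lay close together. Ccl9, Ccl3, Ccl12, Ccl4 and Ccl6 rose by 1.48, 1.17, 1.16, 0.70 and 0.41 per mg/kg, whereas the slope of Ccl5, a T cell attractant, was -0.07. Ccl17 and Ccl22, ligands of CCR4 on Th2 and regulatory T cells, rose by 1.03 ± 0.14 and 0.91 ± 0.15, 2 of 6 on the list of eosinophil and Th2 chemokines. The eosinophil attractants Ccl11 and Ccl26 had slopes of -0.26 and -0.40 and did not pass. None of the 11 chemokines and receptors of lymphoid tissue passed, Cxcl13 having a slope of 0.23.

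Some neutrophil-attracting CXC chemokines and neutrophil markers, Cxcl6 and Cd177 among them, reached much of their rise at the lowest dose. The 0.5 mg/kg arrays also stood apart over all genes. At that dose 356 genes were at least 2-fold above vehicle on both days, against 78 at 1.0 mg/kg. Of 6 CXC chemokines 3 rose, Cxcl2 and Cxcl3 with slopes of 1.41 and 0.62, and Pf4 with 0.73. Pf4 was on the list but is not taken here as a neutrophil attractant. Cxcl6 read -1.43, 0.97, 0.71 and 1.35 on day 30 and -0.68, 0.72, 1.11 and 2.05 on day 90, and its slope of 1.20 ± 0.28 missed the threshold (adjusted p = 0.0715). Every exposed array of Cxcl6 stood above both vehicle arrays all the same. Cd177, a surface protein of neutrophils, read -1.38, 2.04, 2.15 and 2.88 on day 30 and -0.94, 1.28, 2.49 and 3.34 on day 90. On day 30 most of the step was made by 0.5 mg/kg, while the climb on day 90 was more even. The slope of 1.91 ± 0.42 did not pass (adjusted p = 0.0665). S100a9, a subunit of calprotectin, read 0.28 and -0.27 with vehicle and 2.36 and 3.58 at 2.0 mg/kg, slope 1.45 ± 0.29 (adjusted p = 0.0539). Of 14 neutrophil markers 3 rose (Trem1 0.90, S100a8 0.83, Cxcr1 0.60) and none fell, median 0.38. Trem1, an activating receptor of neutrophils and monocytes, had the smallest error of these, 0.04, and read -0.13, 0.25, 0.76 and 1.59 on day 30. The mean of the neutrophil list lay at -0.07 and -0.29 with vehicle and between 0.32 and 0.82 in the 6 exposed arrays. Granule genes made during neutrophil maturation, Elane and Mpo, had slopes of -0.26 and -0.27 that did not pass.

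A second fit took the mean difference of the 2.0 mg/kg arrays from the vehicle arrays without assuming a line, using dose steps and day in the same 8 arrays. In it 393 genes were higher and 77 lower, 2.47% and 0.484% of those tested and 2.95% together (limma, 3 residual degrees of freedom). Cd177 was higher by 4.28 ± 0.33 (adjusted p = 0.0278), Cxcl6 by 2.75 ± 0.27 (adjusted p = 0.0327) and Rnase9, a member of the ribonuclease A family, by 3.45 ± 0.40 (adjusted p = 0.0351). Rnase9 had read -0.02 with vehicle and 2.58, 2.60 and 2.79 at the rising doses on day 30. This count fell to between 0 and 15 when any 1 of the 8 arrays was left out.

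Genes of oxidant defence, acute phase proteins and metalloproteinases follow. Slc26a4, pendrin, an anion exchanger that moves thiocyanate and bicarbonate into airway fluid, read -2.54, 0.50, 1.42 and 2.49 on day 30 and -2.80, -0.66, 1.56 and 3.19 on day 90. Its slope was 2.63 ± 0.38 (adjusted p = 0.0213). Lpo, lactoperoxidase, which oxidizes thiocyanate, went from -1.45 to 1.37 on day 30 and from -1.39 to 3.85 on day 90, a slope of 1.80 ± 0.41 that did not pass (adjusted p = 0.0711). With Cybb, the oxidase subunit of phagocytes, and Duox1, a hydrogen peroxide source of airway epithelium (both 0.51), 3 of 9 genes of airway oxidant defence rose and none fell, median 0.51. Lcn2, made by neutrophils as well as epithelium, read -1.70, 0.13, 0.41 and 2.74 on day 30 and -1.38, 0.47, 1.91 and 3.15 on day 90, slope 2.15 ± 0.21 (adjusted p = 0.00933). Orm1 and Hp, acute phase proteins, rose by 1.20 and 0.86, so that 3 of 13 genes of that list rose. Mmp7, matrilysin, an epithelial metalloproteinase, read -2.97 and -4.80 with vehicle and -0.39 and 0.99 at 2.0 mg/kg, slope 1.97 ± 0.35 (adjusted p = 0.0378). Of 14 metalloproteinases and inhibitors, Mmp12, Mmp7 and Mmp14 rose (the last by 0.44) and none fell. Dmkn, dermokine, a protein secreted by epithelia, rose by 1.96 ± 0.14 per mg/kg, from -0.95 to 2.72 on day 30. Mab21l3, Kctd4, Stra6l and Rgs9, the last a regulator of G protein signalling, completed the 20 steepest rises with slopes of 2.13, 1.66, 1.56 and 1.47.

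Kininogens, membrane mucins and the senescence locus were put on 1 list, written like the others with earlier results of these data known. Of its 8 measured genes 5 rose, median 0.72. Muc20, a transmembrane mucin, read -0.14 and -0.42 with vehicle and 1.34 and 2.86 at 2.0 mg/kg, slope 1.13 ± 0.20 (adjusted p = 0.0395). Kng1 and Kng2, precursors of kinins, rose by 1.12 and 1.03, but these near-identical copies may share probe signal and their separate values are uncertain. Cdkn2a, whose products p16 and ARF restrain the cell cycle, read -0.59, -0.32, 0.15 and 0.71 on day 30 and -0.77, 0.06, 0.95 and 1.74 on day 90. Its slope was 0.95 ± 0.14 (adjusted p = 0.0212), while that of its neighbour Cdkn2b was 0.00. None of 15 targets of p53 passed. In the cell cycle list 8 of 20 genes rose and none fell, median 0.34. Mki67, a marker of cycling cells, read -0.61 and 0.06 on day 30 and -1.07 and -0.06 on day 90, at vehicle and 2.0 mg/kg, slope 0.40 ± 0.06 (adjusted p = 0.0268). Both vehicle arrays were its lowest of their day.

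Of the 16 complement genes 10 rose and none fell, with a median slope of 0.45. C3, the central component, read -0.78, 0.69, 0.69 and 1.23 on day 30 and -0.61, 0.10, 1.38 and 1.92 on day 90 (slope 1.08 ± 0.20, adjusted p = 0.0443). Cfi, the protease that inactivates C3b, rose by 1.10 ± 0.14, and Cfb, C1qa, C1qb and C1qc by 0.61, 0.59, 0.43 and 0.40. Of 12 genes of the interleukin 1 family and inflammasome 4 rose. The steepest of them hold the pathway back: Il1r2, the decoy receptor, by 1.22 ± 0.14, and Il1rn, the receptor antagonist, by 0.93 ± 0.08. Il1b itself had a slope of 0.52 ± 0.12 that missed the threshold (adjusted p = 0.0678), and Il1a one of 0.08. Of 13 genes of the interleukin 6 and interleukin 17 families and growth factors Csf1 alone rose (0.34), beside 2.79% of all genes. Il6 and Il17a had slopes of -0.25 and -0.54. Of 17 interferon response genes 15 had a slope above 0. Cxcl10 passed (0.72 ± 0.08, adjusted p = 0.0112), and the slopes of Ifit3 and Mx1 did not (0.56 and 0.50). In the limma fit with dose steps, Cxcl11, Ifit3 and Mx1 were higher at 2.0 mg/kg by 1.67, 1.30 and 1.19 (adjusted p = 0.0314, 0.0319 and 0.0367).

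Within the type 2 list of 12 genes, 4 rose and 1 fell, and the median slope was -0.15. The rises were effector proteins of macrophages and epithelium. Chia, acidic chitinase, read -1.36 and -1.03 with vehicle and 1.96 and 3.00 at 2.0 mg/kg (slope 1.72 ± 0.27, adjusted p = 0.0268). Retnla, Chi3l1 and Arg1 rose by 1.47, 1.25 and 1.10. The cytokines Il4, Il5 and Il13 did not pass, with slopes of -0.30, -0.61 and -0.16. Alox15, a lipoxygenase of macrophages, eosinophils and epithelium, fell at each dose, from 0.19 to -0.22, -0.67 and -1.01 on day 30 and from -0.01 to -0.44, -0.77 and -1.26 on day 90, slope -0.60 ± 0.06 (adjusted p = 0.00988). None of the 6 eosinophil markers passed (median -0.28), nor did any of 8 mast cell or 8 natural killer markers. Mzb1 and Tnfrsf17, genes of plasma cells, rose by 0.70 and 0.59, while Cd79a, Ms4a1 and the other 5 B cell markers measured did not pass. Among 14 T cell markers Icos, a costimulatory receptor, rose by 0.69, a single call beside the 2.79% of all genes that rose.

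**Figure D2:**
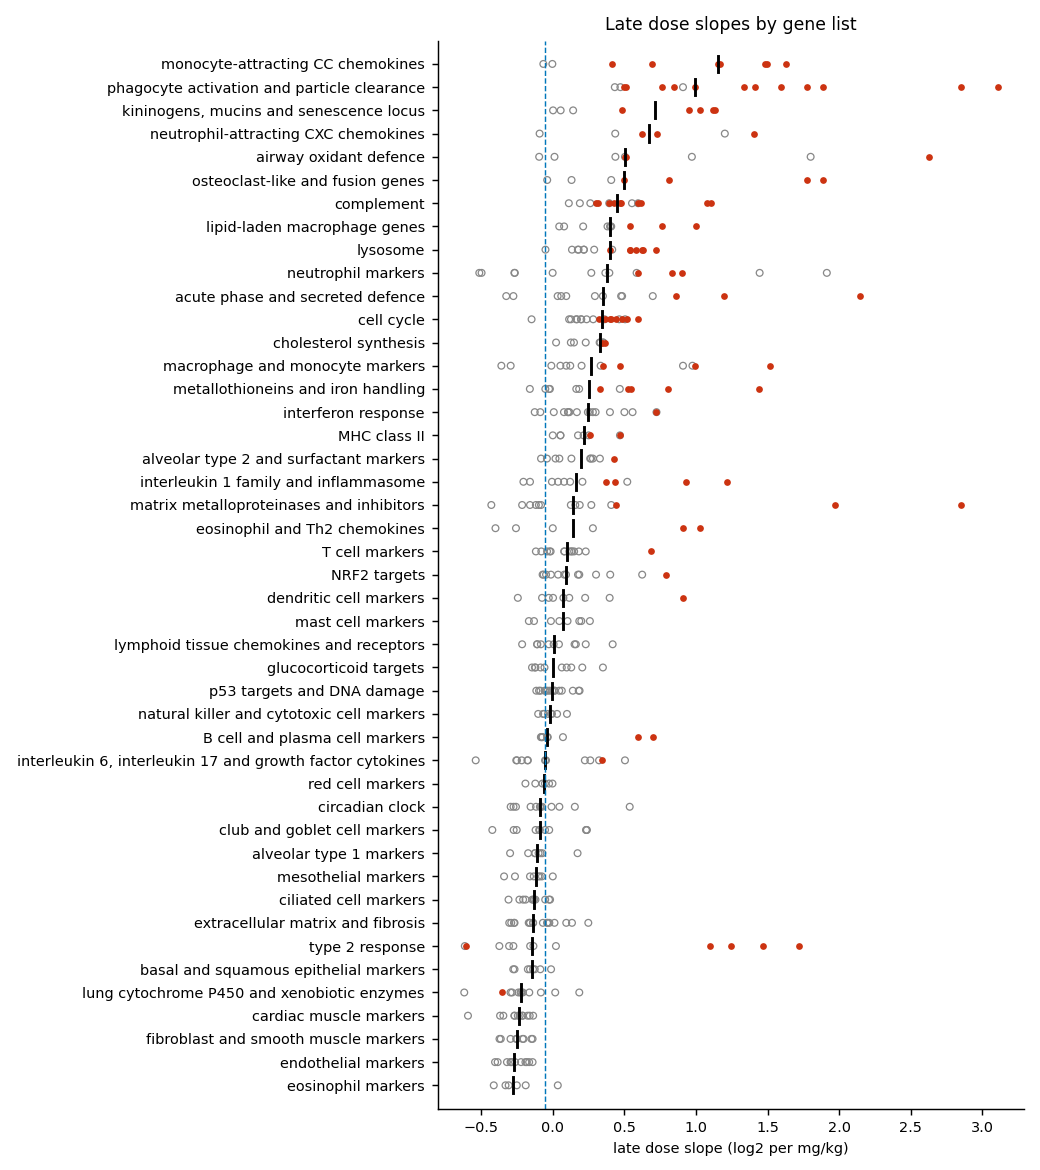
Late dose slopes (horizontal axis, log2 per mg/kg) of the members of 45 gene lists, 1 point per gene, filled where the gene passed the test and open where it did not, with a black bar at the median of the list and a dashed line at the median of all genes (-0.05). Monocyte-attracting chemokines (median 1.16) and phagocyte activation genes (0.99) lie farthest to the right.

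Metals and oxidants gave a small set. Of 12 genes of metallothioneins and iron handling 5 rose, Mt3, a metal-binding protein, by 1.44 ± 0.15 (adjusted p = 0.0112), Slc11a1, a metal transporter of phagosomes, by 0.81, and Ftl1, ferritin light chain, by 0.55. Hmox1, which degrades haem, was the 1 of 13 NRF2 targets that rose (0.79 ± 0.08, adjusted p = 0.0104), beside 2.79% of all genes. Nqo1 and Gclm had slopes of -0.01 and -0.07. Idi1 and Fdps, enzymes of cholesterol synthesis, rose by 0.37 and 0.34, 2 of 10.

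For genes of lung structure the counts were near the share of calls over all genes, 3.24%. None of the 17 genes of extracellular matrix and fibrosis passed, their median slope was -0.14, and Col1a2 and Fn1, collagen and fibronectin, had slopes of -0.16 and 0.10. No marker of endothelium (12, median -0.27), fibroblasts and smooth muscle (9, median -0.25), alveolar type 1 cells (8, median -0.11), ciliated cells (11), club and goblet cells (11), basal cells (8), mesothelium (8), cardiac muscle (12) or red cells (6) passed. Pecam1 of endothelium and Tagln of smooth muscle came nearest, with slopes of -0.28 ± 0.06 (adjusted p = 0.0645) and -0.25 ± 0.05 (adjusted p = 0.0525). No slope was above 0 among the endothelial, fibroblast and smooth muscle, ciliated, basal, cardiac muscle and red cell markers. In both the alveolar type 1 and the mesothelial markers 1 of 8 was above 0, while 6158 of all 15924 genes had slopes above 0. Markers of a cell type are not independent of each other, so these signs carry no test. With cellulose on the same days the median slopes were also below 0, at -0.16 in endothelium, -0.10 in ciliated and -0.15 in basal cell markers. Of 10 type 2 cell markers Lamp3, a protein of lamellar bodies, rose by 0.43. Circadian and glucocorticoid target genes gave no call in 12 and 10 genes.

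The falls were shallower than the rises and led by genes with no shared list. Their number depended on the processing. Against 72 as reported, 3 genes fell with quantile normalization, 4 with a factor for the spots without rat sequence and 55 with arrays centred on their medians. Rorb, a nuclear receptor, read 0.57, 0.32, 0.05 and -0.99 on day 30 and 0.70, 0.74, -0.16 and -1.45 on day 90, slope -0.97 ± 0.12 (adjusted p = 0.017). Sytl5, a vesicle transport protein, fell by 0.80 per mg/kg, Drd4, a dopamine receptor, by 0.66, Slc6a7, a proline transporter, by 0.66, Tac1, the substance P precursor, by 0.58, Doc2b, a calcium sensor of exocytosis, by 0.56 and She by 0.54. Ifna5, Taar8b, Or6z7 and Or52e15b, members of large families of similar genes for interferons, trace amine receptors and odorant receptors, fell by 0.90, 0.84, 0.84 and 0.71 and are uncertain for possible shared signal. Of 12 lung cytochrome P450 and xenobiotic enzymes Fmo2, a flavin monooxygenase, fell by 0.36 ± 0.05 (adjusted p = 0.0231), a single call beside the 0.452% of all genes that fell.

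The shape of the response over dose was described for the genes that passed, and since the slope chose them these counts carry no test. The 444 rises had median differences from vehicle of 0.29 at the lowest, 0.47 at the middle and 1.01 at the highest dose. The 2.0 mg/kg array was the highest on both days in 443 of them, against 2593 of all genes, and the order by dose was complete on both days in 280, against 388 among all genes. At 0.5 mg/kg 391 stood above vehicle on both days, but 17 were at least 2-fold above it on both, compared with 51 at 1.0 and 173 at 2.0 mg/kg. Over all genes 7734 stood above vehicle at 0.5 mg/kg on both days. Genes at least 2-fold above it on both numbered 356, 78 and 224 at the rising doses. Genes at least 2-fold below it on both numbered 323, 636 and 50. Neither series followed the order of dose, and the 0.5 mg/kg arrays stood apart from the 1.0 mg/kg arrays over all genes. The 72 falls had median differences of -0.14, -0.35 and -0.73, and 31 were fully ordered downward, against 127 of all 15924 genes.

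The 2.0 mg/kg arrays were also compared with the vehicle of the same day, 1 array against 1 and therefore without a test. On day 30, 272 genes were at least 2-fold higher and 433 lower, 1.71% and 2.72% of all. On day 90, 524 were higher and 307 lower, 3.29% and 1.93%. On both days 224 genes were at least 2-fold higher (1.41%) and 50 lower (0.314%), while 10 genes (0.0628%) were at least 2-fold apart in opposite directions. The differences of the days had a Pearson correlation of 0.63 across 15924 genes, which are not independent of each other. Spp1 differed by 6.06 on day 30 and 6.73 on day 90, and Mmp7 by 2.59 and 5.79.

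**Figure D3:**
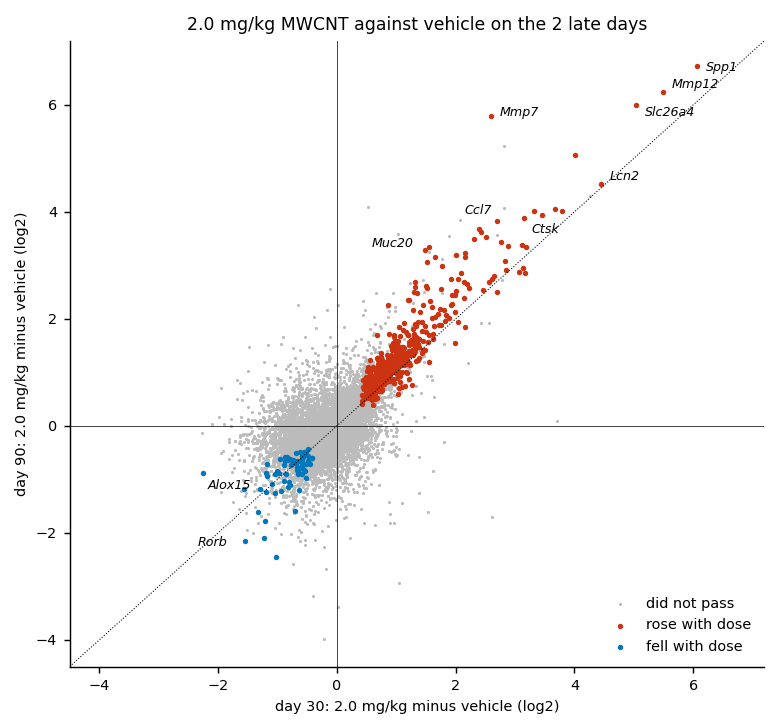
Difference of the 2.0 mg/kg array from the vehicle array on day 90 (vertical, log2) against day 30 (horizontal, log2), 1 point per gene, red and blue for genes whose slope over all 8 arrays passed the test upward or downward, dotted line at equality. The coloured genes were chosen with these arrays, so their place along the diagonal is a description, and Spp1 lies farthest out at 6.06 and 6.73.

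Whether the slope itself changed between days was tested as the day-90 slope minus the day-30 slope, and no gene passed (0 of 15924, 0%, limma, 4 residual degrees of freedom, 128 at an unadjusted p under 0.05). In data simulated at this size the test recovered 0% of 2-fold, 43% of 4-fold and 70% of 16-fold differences at 2.0 mg/kg. That simulation held no shifts shared by the genes of an array. The smallest unadjusted p among these genes belonged to Pianp, RT1-A3, Ccdc87, Padi1 and Hsfy2. Padi1, which converts arginine to citrulline in proteins, had slopes of 0.20 on day 30 and 1.09 on day 90, a difference of 0.89 ± 0.17 (adjusted p = 1). The other 4 had a lower slope on day 90, by -0.88 (Pianp), -1.33 (RT1-A3), -0.74 (Ccdc87) and -0.74 (Hsfy2), each with adjusted p = 1. Among the 444 rises the median slope was 0.44 on day 30 and 0.57 on day 90, and the day-90 slope was the larger in 400, against 8832 of all genes. The slope over these same arrays chose the 444, and no gene passed without the day-90 2.0 mg/kg array, so these values carry no test.

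The late slope was then set against the slope over days 1, 3 and 7 in the 20 MWCNT arrays. It was higher in 15 genes and lower in none, 0.0942% and 0% of all genes tested (limma, 13 residual degrees of freedom, 1265 at an unadjusted p under 0.05). Ctsk had a slope of 0.69 in the first week and 1.77 late, a difference of 1.08 ± 0.14 (adjusted p = 0.021). Mt3 went from 0.37 to 1.44 (adjusted p = 0.038) and Slc47a1, a transporter of organic cations, from -0.02 to 1.01 (adjusted p = 0.034). Gcgr, the glucagon receptor, had slopes of 0.20 and 1.18, Naaa, an amide hydrolase of lysosomes, -0.21 and 0.62, and Cxcr1, a receptor for neutrophil-attracting chemokines, -0.23 and 0.60. The other 9 were Cdkn2a (difference 0.80), Pcsk1 (0.75), Slc39a2 (0.70), Cela1 (0.61), Il18 (0.54), Pparg (0.51), Fam3d (0.51), Pdhx (0.50) and Igf1 (0.40). In 4 of these the late slope itself did not pass. Slc39a2 and Cela1 had slopes of -0.53 and -0.37 in the first week and 0.17 and 0.24 late, Pcsk1 -0.27 and 0.48, and Pparg, a lipid-sensing receptor of alveolar macrophages, -0.30 and 0.21. The count was 0 when day 1, day 3, day 30 or day 90 was left out, 25 without day 7, and 0 with quantile normalization. With all 80 arrays in the fit it was 17, of which 5 were among the 15. For Spp1 and Ccl2 the difference did not pass (0.59 ± 0.50 and 0.22 ± 0.34). Of the 444 late rises 422 had a first-week slope above 0, against 7548 of all genes, with a median of 0.27.

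**Figure D4:**
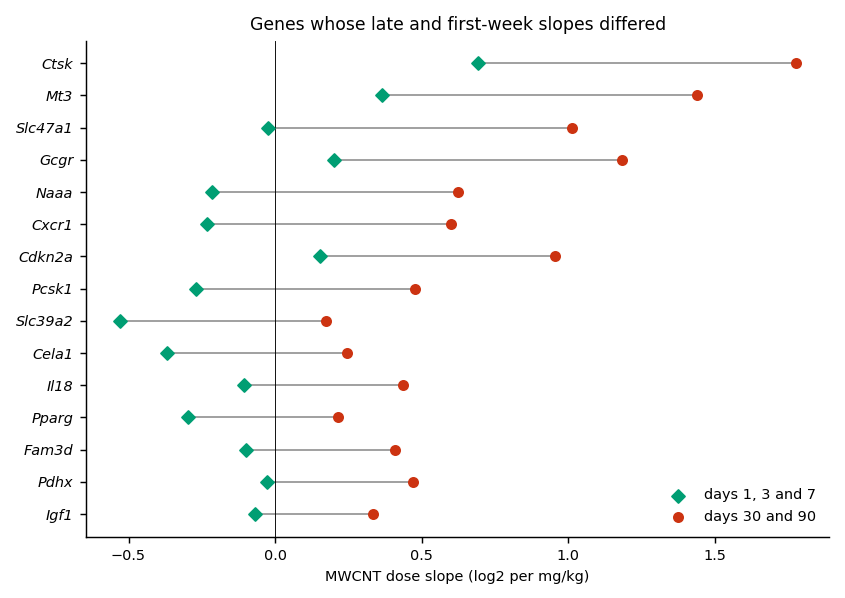
MWCNT dose slopes (horizontal axis, log2 per mg/kg) over days 1, 3 and 7 (diamonds) and over days 30 and 90 (circles) for the 15 genes in which they differed by the test, ordered by the difference. Ctsk is at the top, with 0.69 and 1.77, and Igf1 at the foot with a difference of 0.40.

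Cellulose nanofibrils at the same labelled doses and days showed which late responses differed between materials. The MWCNT slope exceeded the mean slope of the 3 CNF in 143 genes and was below it in 10, 0.898% and 0.0628% of all genes tested and 0.961% together (limma, 32 arrays, 20 residual degrees of freedom). The macrophage genes at the head of the MWCNT response were not among them. Spp1 had late slopes of 2.86, 3.08 and 3.11 with CNF1, CNF2 and CNF3 (difference from MWCNT 0.09 ± 0.72, adjusted p = 0.996), and Mmp12 had 2.70, 3.25 and 3.42 (difference -0.27 ± 0.73). These standard errors leave room for differences larger than the errors themselves in either direction. Of 14 neutrophil markers 5 had a steeper slope with MWCNT, and of 13 acute phase and secreted defence genes 3. The neutrophil marker Cxcr1 was not among them (0.08 ± 0.20, adjusted p = 0.987). Cd177 had CNF slopes of -0.18, -0.16 and -0.04 against 1.91 with MWCNT (difference 2.04 ± 0.36, adjusted p = 0.0046), and S100a9 0.06, 0.05 and -0.05 against 1.45 (1.43 ± 0.25, adjusted p = 0.0039). Lpo and Lcn2 differed by 2.15 ± 0.46 and 1.70 ± 0.27 (adjusted p = 0.021 and 0.0018), Rnase9 and Gsg1 by 1.74 and 1.54. Ccl7 differed by 1.29 ± 0.15 (adjusted p = 9.2e-05), Muc20 by 1.37 ± 0.16 and Il1r2 by 1.07 ± 0.14, all with CNF slopes of at most 0.42.

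In the opposite direction, Cst6, the protease inhibitor cystatin M, had slopes of 1.06, 1.47 and 2.07 with CNF1, CNF2 and CNF3 and -0.31 with MWCNT (difference -1.84 ± 0.31, adjusted p = 0.0031). Gabbr2, a GABA receptor subunit, Gpr143, a receptor of melanosomes, Sptssb, a subunit of serine palmitoyltransferase, Sfrp5, a secreted Wnt antagonist, and Plppr4 differed by -1.23, -1.19, -1.17, -1.13 and -0.95. Their MWCNT slopes lay between -0.72 (Sptssb) and -0.09 (Sfrp5) and did not pass. With quantile normalization 18 genes were higher with MWCNT and 0 lower, so none of these calls below cellulose was kept. Without day 30 the comparison gave 18 genes and without day 90 it gave 0, while without CNF1 or CNF3 it gave 81 and 71.

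**Figure D5:**
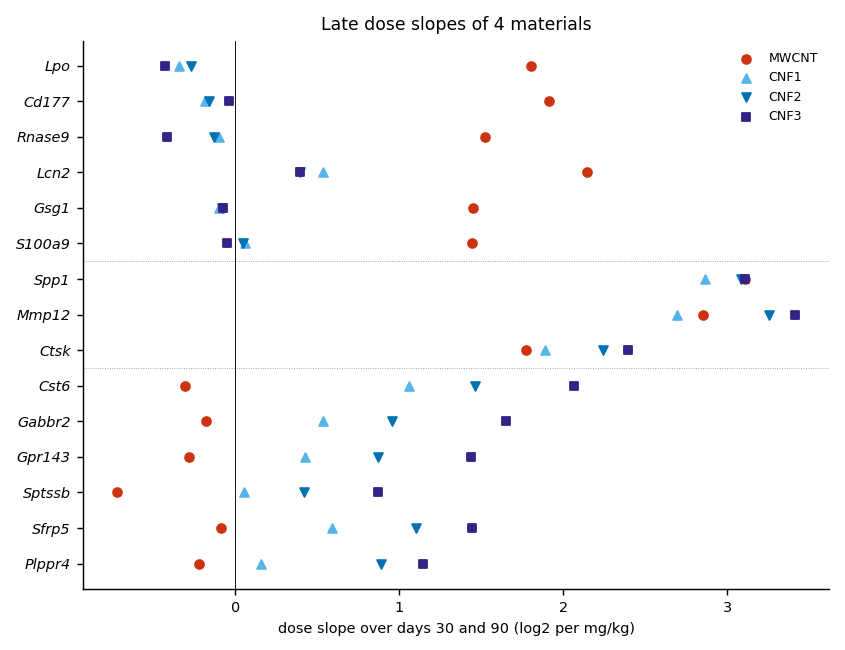
Dose slopes over days 30 and 90 (horizontal axis, log2 per mg/kg) of MWCNT (circles) and of CNF1, CNF2 and CNF3 (triangles, inverted triangles and squares) for the 6 genes with the largest and the 6 with the smallest difference among those that passed, and for Spp1, Mmp12 and Ctsk between them. Cd177 has 1.91 with MWCNT and at most -0.04 with CNF, Cst6 has -0.31 with MWCNT and up to 2.07 with CNF, and Spp1 lies between 2.86 and 3.11 in all 4 materials.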

How the data were processed

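RNA of rat lung was measured on Agilent one-colour (Cy3) arrays, and the submitters' processing notes name Agilent Feature Extraction 12.0.3.1 for the images. The files hold log2 values, deposited by the authors after a normalization and a centring of each probe that the numbers show. The base and the method are not given in the sources used here, and the base was taken as 2. Of 41103 probes per array, 91 control spots were set apart, 20932 carried 1 gene symbol and 20080 none, and probes were averaged to 15924 genes. Symbols were updated through RefSeq accessions and synonyms. Centred values hold no signal above background, and the number of arrays limits the precision.

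Fits used limma 3.58.1 (lmFit, eBayes) in R 4.3.3 on all genes, with Benjamini-Hochberg adjustment at 0.05. The 8 arrays gave the slope with 1 intercept per day, the 2.0 mg/kg effect from dose steps, and the difference of slopes between days. The 20 MWCNT arrays, and 32 late arrays of all 4 materials, gave the other comparisons. The members and the 45 gene lists were chosen with earlier results of these data known.

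Named genes were the 20 largest rises and 12 largest falls past the threshold and on the same side of vehicle on both days, the 6 largest and 6 smallest differences from the first week and from cellulose, the 5 smallest p for the difference of days, 5 at each end of genes with opposite days, and up to 4 members of each list with the smallest p. Gene models and other bare identifiers were not named. Further list members, and those set beside them in other comparisons, were named after their values were seen. Alternatives were other scaling, probe choice, moderation, dose scale, vehicles, control-spot factor, and leaving out arrays, doses, days or materials. On simulated data with 100 of 15924 genes changed at each fold, the slope recovered 53% of 2-fold, 73% of 4-fold and 93% of 16-fold changes at 2.0 mg/kg, with 19 wrong calls. The simulated noise was independent between genes and arrays. Shifts shared by the genes of an array were left out, so recovery and wrong calls in the real arrays may differ. Figures and motif searches used Python 3.11.15, pandas 2.3.3, numpy 2.4.6 and matplotlib 3.10.9.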

Additional observations from a re-analysis of the deposited data

Results flagged for a closer look

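The late MWCNT slope differed from the first-week slope, by a test of the difference itself, in 15 genes. The named ones were Ctsk (1.08 log2 per mg/kg higher late), Mt3 (1.07), Slc47a1 (1.03), Gcgr (0.98), Naaa (0.84) and Cxcr1 (0.83). None passed when day 1, 3, 30 or 90 was left out, and 5 of these 6 did not pass with all 80 arrays in the fit. No group had the 4 arrays that a check for outlying arrays needs.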

How the results depend on the processing

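No paired analysis was possible because each group had 1 array and the array titles carry no replicate number. The 516 slope calls became 223 with quantile normalization (220 higher, 3 lower), 1006 with all 80 arrays in the fit (724 and 282), 2918 with the vehicles of all 4 materials (1745 and 1173), 129 with 1 control-spot factor, 291 with dose as a rank, 235 with a slope of at least 0.5, 30 without the 0.5 mg/kg arrays, and 0 without the 1.0, the 2.0, or the 0.5 and 1.0 mg/kg arrays and on day 30 or day 90 alone, where fewer arrays enter. Leaving out 1 array gave 0 to 339. Centring on medians, trend and robust moderation, the probe with the largest range and single probes gave 395 to 558. The 470 calls of the 2.0 mg/kg effect became 294 (quantile), 225 (trend and robust), 1681 (all 80 arrays), 3653 (vehicles of all materials), 18 (control-spot factor) and 0 to 15 without 1 array. The slope difference between days had 0 calls in every setting run. The 15 late against first-week calls became 0 with quantile normalization, 9 with the largest-range probe, 0 without day 1, 3, 30 or 90 and 25 without day 7. The 153 MWCNT against cellulose calls became 18 (quantile, 18 higher and 0 lower), 58 (all 80 arrays), 18 without day 30, 0 without day 90, 81 without CNF1 and 71 without CNF3. Of the 120 single-gene values refitted under these alternatives, 0 changed sign. Most were chosen because they had passed, and the refits reused the same arrays, so few changes of sign could appear. Calls were lost more readily, and Tac1, Taar8b and Doc2b kept theirs in 2 of 24 alternatives. Pianp, RT1-A3, Ccl5 and Mlc1, which were not refitted, had slopes of opposite sign on the late days. Apart from the settings with fewer arrays, the cause of these shifts was not tested. With no signal above background, dim probes could not be told from bright ones.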

Other observations

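Of the genes whose 2.0 mg/kg array lay above vehicle on one late day and below it on the other, 5 are given as values of single arrays, without a test and chosen after their values were seen. RT1-Bb, a class II histocompatibility gene, was 1.62 higher than vehicle at 2.0 mg/kg on day 30 and -0.85 on day 90, and RT1-A3, a class I gene, 0.89 and -1.82. RT1 genes are a family of similar copies whose separate values are uncertain, and of the 9 MHC class II genes measured, RT1-DMa and RT1-Da rose with dose (slopes 0.47 and 0.26). Mlc1, a membrane protein of astrocytes, gave 2.60 and -1.70, its vehicle arrays being at -1.61 on day 30 and 2.02 on day 90. Cd70, a ligand of lymphocyte activation, gave -0.17 and 2.16, and Uhrf1, which maintains DNA methylation in dividing cells, -0.35 and 1.83. None of these 5 passed the test of the slope or of the difference between days.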
